A study of Equus caballus with 28 samples.

Results

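The miR-26 family was represented in the count data by a single mature miRNA, eca-miR-26a, which was selected by its name (eca-miR-26, eca-miR-26a or eca-miR-26b, with any arm suffix) and was 1 of 690 known and 1 of 844 known and predicted mature miRNAs listed. A row for eca-miR-26b was not analysed here. In the RefSeq annotation of the horse assembly TB-T2T, 2 precursor genes carry the name, namely MIR26A, which lies within the span of CTDSP2, and MIR26A-2, which lies within the span of CTDSPL. The counts list a single mature eca-miR-26a, and reads from the 2 precursors cannot be told apart in them.

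MicroRNAs are short RNAs that guide Argonaute proteins to messenger RNAs and lower their stability or translation. The miR-26 miRNAs are abundant in many adult tissues, the transcription factor MYC represses them, and the histone methyltransferase EZH2 is among their best known targets. In mammalian cells their precursor genes sit in genes of the CTDSP family of small phosphatases, with which they are transcribed.

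Small RNA was sequenced from 28 samples of Warmblood mares at 13 days after ovulation, at the time when the equine conceptus has to be recognised by the dam. Each mare was studied in a pregnant cycle, in which she was inseminated with fresh semen of 1 stallion, and in an unbred cyclic control cycle, and hCG was given to induce ovulation in both. The 6 groups were cyclic endometrium (n = 4), pregnant endometrium (n = 5), cyclic uterine fluid (UF, n = 4), pregnant UF (n = 5), embryo (n = 5) and yolk sac (YS) fluid (n = 5). UF was absorbed into a tampon before the uterus was flushed, and endometrium was taken last, as a biopsy. The paper marks the flush, made to recover the embryo, for the pregnant cycle, and does not plainly say whether cyclic mares were flushed. YS fluid was aspirated from the conceptus, and the embryo samples were embryonic tissue without its capsule. The replicate numbers of the labels were taken as the mare, and mare 5 had no cyclic library. Fluids and tissues were extracted with different RNA kits, so that the sample type and the kit cannot be told apart in any comparison of a fluid with a tissue.

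Depth differed between the groups. Libraries of pregnant endometrium held 280065 to 590593 miRNA reads, those of cyclic endometrium 61836 to 371630, those of pregnant UF 79173 to 152860, those of cyclic UF 62087 to 226308, those of the embryo 28204 to 44768 and those of YS fluid 4352 to 14531. The 5 miRNAs of the miR-302 cluster of pluripotent cells (miR-302a to miR-302d and miR-367) summed to 6808 to 30446 CPM (counts scaled to a common library total) in embryo libraries and to 14246 to 62529 CPM in those of YS fluid, with each of them read in both groups, and to at most 24.1 CPM in any maternal library. There were 3 libraries that stood apart from the others of their group, picked after their values were seen and not by a fixed rule. In the embryo of mare 1, predicted miRNAs took 36.3% of the reads, against 5.02% to 8.67% in the other embryos. The cyclic UF of mare 3 had the fewest reads of its group and 266433 CPM of eca-let-7a, against 134220 to 152110 CPM in the others, and the YS fluid of mare 4 had 54917 CPM of eca-let-7a, against 6226 to 16654 CPM in the others. The levels of eca-miR-26a are given with and without these libraries, and the counts of the miRNA lists are given with them. The tests of eca-miR-26a are given with and without the mare concerned, which leaves out her libraries in both groups compared. The cyclic endometrium of mare 1 had 61836 reads, against 278386 to 371630 in the others of its group. In pregnant endometrium the highest library had 45569 CPM of the 5 miRNAs of stroma and smooth muscle described below, against a group median of 17238 CPM. It was not left out as standing apart.

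Among all miRNAs, eca-miR-26a was one of the most abundant in every sample. It took 345561 of the 4313783 reads of the study (8.01%), and 207 to 56186 reads of a single library. Its share of a library lay between 2.99% and 10.6%, and its rank by abundance lay between 2 and 6 in each of the 28 libraries and was 4 in 15 of them. At these counts, the precision of its share was limited most in YS fluid, where the library with the fewest reads (mare 4) gave 4.76% with a Wilson 95% interval of 4.16% to 5.43%. Such intervals cover counting error only, since copies made by PCR are not independent molecules.

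In pregnant endometrium eca-miR-26a took 8.51%, 7.05%, 9.51%, 7.55% and 10.03% of the library reads in mares 1 to 5. In cyclic endometrium it took 10.6%, 7.30%, 8.88% and 6.86% in mares 1 to 4. The ranges of the 2 endometrial groups overlapped, and the highest cyclic value, from the library of mare 1 with the fewest reads of its group, was above every pregnant one.

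In pregnant UF the share of eca-miR-26a was 6.03%, 7.91%, 9.76%, 8.65% and 8.78% in mares 1 to 5. In cyclic UF it was 6.997%, 7.49%, 3.82% and 6.24% in mares 1 to 4. The groups overlapped here as well, and the lowest value of the UF libraries was that of mare 3 in her cyclic cycle.

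In the embryos of mares 1 to 5, eca-miR-26a took 3.68%, 7.45%, 8.87%, 10.6% and 6.52% of the reads. In YS fluid from the same conceptuses it took 3.89%, 2.99%, 4.32%, 4.76% and 3.31%. All YS fluid values lay below every value of either endometrial group and of pregnant UF, whereas the embryos ranged from the level of YS fluid to the top of the endometrial values. The lowest embryo was that of mare 1, and as a share of the reads of known miRNAs alone, the embryos ranged from 5.78% to 11.6%.

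**Figure D1:**
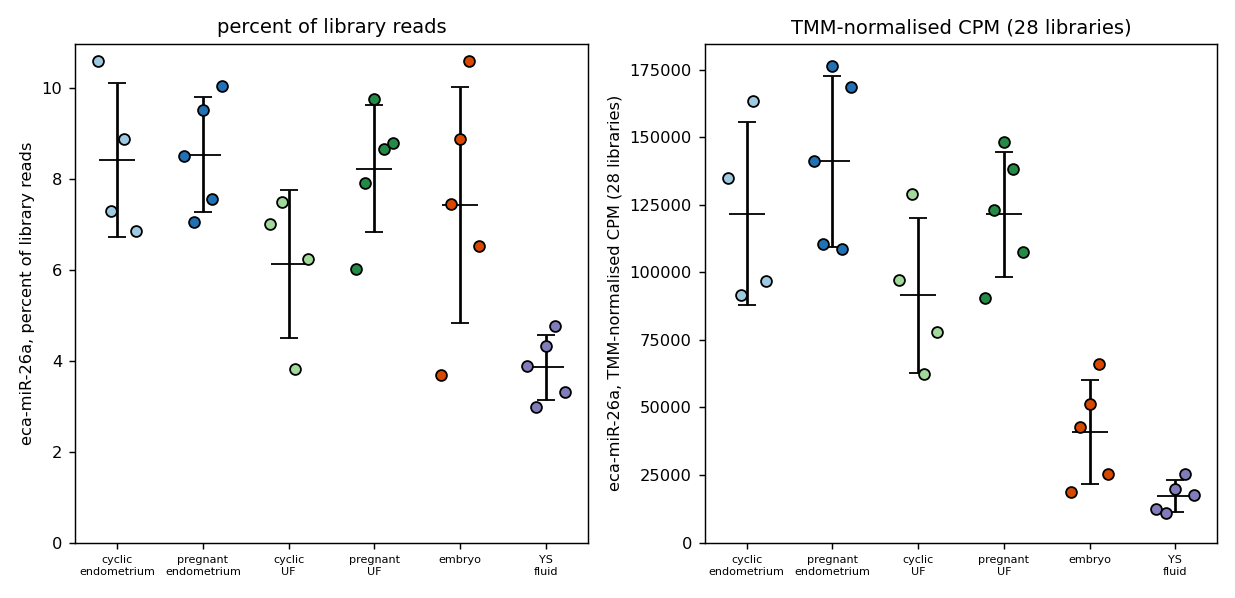
Level of eca-miR-26a in each of the 28 libraries by group, as a percent of library reads (left) and in CPM after scaling all 28 libraries together by the trimmed mean of M values (right). Points are libraries in the order of the mares, the horizontal line is the group mean and the bar is 1 SD. On the left YS fluid, with a mean of 3.85%, lies below the 2 endometrial groups and pregnant UF, and on the right the means of embryo and YS fluid lie below those of all 4 maternal groups.

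By group mean, the order of the levels was pregnant endometrium (8.53% ± 1.26, SD, n = 5), cyclic endometrium (8.41% ± 1.69, n = 4), pregnant UF (8.23% ± 1.40, n = 5), embryo (7.42% ± 2.59, n = 5), cyclic UF (6.14% ± 1.63, n = 4) and YS fluid (3.85% ± 0.721, n = 5). Neighbours in this order differed by 1.01-, 1.02-, 1.109-, 1.21- and 1.59-fold, and in each of the 5 pairs of neighbours the libraries overlapped. Over all 15 pairs of groups, 12 overlapped, and the other 3 were those of YS fluid with pregnant endometrium, cyclic endometrium and pregnant UF. Without the libraries that stood apart the means were 8.36% ± 1.77 (n = 4) in the embryo, 6.91% ± 0.631 (n = 3) in cyclic UF and 3.63% ± 0.595 (n = 4) in YS fluid. The embryo then lay above pregnant UF in the order, and 10 of the 15 pairs overlapped, the other 5 being those of YS fluid with each other group.

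The order depended on how the libraries were scaled. A share of the reads falls when other miRNAs take more of the library. Scaling by the trimmed mean of M values (TMM) instead uses a weighted mean of the miRNA ratios between libraries, with the extremes trimmed. It assumes that most miRNAs are unchanged. In the TMM-scaled tests of embryo and YS fluid against pregnant endometrium below, 71.3% and 53.1% of the miRNAs were called. The median log2 fold changes were -1.02 and -0.84, so the bulk of the miRNAs was not level there. The size of the TMM differences depends on that assumption. With TMM over the 28 libraries, the mean of eca-miR-26a was 141019 ± 31592 CPM in pregnant endometrium, 121634 ± 33809 in cyclic endometrium, 121461 ± 23120 in pregnant UF, 91519 ± 28743 in cyclic UF, 40850 ± 19222 in the embryo and 17191 ± 5817 in YS fluid. On this scale the embryo lay below cyclic UF in the order. The gap between YS fluid and the maternal groups was wider than in the shares.

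Measured as a share of the reads, eca-miR-26a varied little between the sample types. Among the 94 known miRNAs with a mean of at least 500 CPM over the groups, its highest group mean was 2.21-fold its lowest, which was the third smallest span. The smaller ones were those of eca-miR-28-5p (2.04-fold) and eca-miR-21 (2.05-fold), followed after eca-miR-26a by eca-miR-30b (2.26-fold) and eca-miR-30d (2.32-fold). Without the 3 libraries that stood apart the span of eca-miR-26a was 2.35-fold, the 4th smallest. The median span was 21.1-fold over the 89 of these miRNAs that had reads in every group. With TMM over the 28 libraries the span of eca-miR-26a was 8.20-fold, at rank 32 from the lowest, against a median of 23.3-fold, so that its place near the bottom held for shares of the reads and not for this scale.

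**Figure D2:**
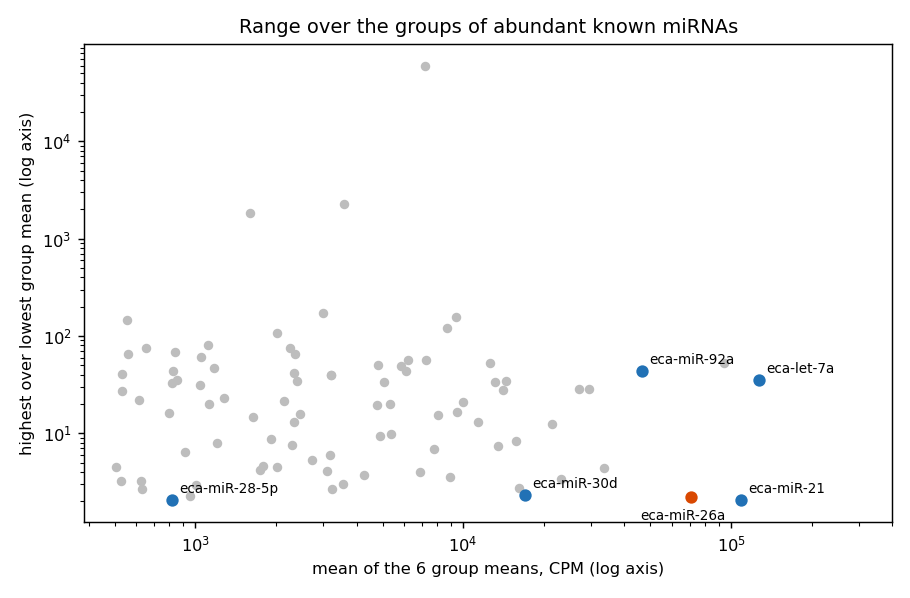
Highest over lowest group mean of CPM (log axis) against the mean CPM of the 6 groups (log axis) for the 89 known miRNAs with a mean of at least 500 CPM and reads in every group. The orange point, eca-miR-26a, has a span of 2.21-fold, near that of eca-miR-21 at 2.05-fold, while eca-miR-92a spans 43.7-fold and eca-let-7a lies at the upper right.

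Within the groups, the coefficient of variation of eca-miR-26a between mares was 20.1% in cyclic endometrium, 14.8% in pregnant endometrium, 26.5% in cyclic UF, 16.96% in pregnant UF, 34.97% in the embryo and 18.7% in YS fluid. Counted from the lowest of the 94 miRNAs, these were at ranks 35, 10, 13, 14, 33 and 3. The median over the groups was 19.4% for eca-miR-26a, against a median of 37.6% over the 94. In YS fluid, eca-miR-26a had 207 to 565 reads per library, whereas the median of the 94 miRNAs was 24.5 reads. Without the libraries that stood apart, the values were 9.14% in cyclic UF, 21.2% in the embryo and 16.4% in YS fluid.

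Of the miRNAs that are often used as references for miRNA levels, 7 were read in the same libraries. Their spans over the group means were 3.76-fold for eca-miR-191a, 3.98-fold for eca-miR-25, 7.66-fold for eca-miR-423-5p, 9.39-fold for eca-miR-93, 12.5-fold for eca-miR-16, 20.2-fold for eca-miR-103, and wider still for eca-let-7a, whose group means lay between 5434 and 190212 CPM. In shares of the reads, the span of eca-miR-26a was smaller than that of each of these. With TMM over the 28 libraries the order turned for 5 of the 7, since eca-miR-25 (2.34-fold), eca-miR-191a (2.51-fold), eca-miR-93 (2.87-fold), eca-miR-16 (4.44-fold) and eca-miR-103 (5.93-fold) then had smaller spans than eca-miR-26a at 8.20-fold. In the TMM-scaled tests of the 9 comparisons described below, eca-miR-26a was called in 5, eca-let-7a and eca-miR-423-5p in 4 each, eca-miR-16 in 3, eca-miR-93 and eca-miR-103 in 2 each, eca-miR-191a in 1 and eca-miR-25 in 0. These comparisons called between 3.37% and 71.3% of all miRNAs tested.

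The first comparison asked whether pregnancy altered eca-miR-26a in the endometrium. Within mares, the pregnant share was 0.804, 0.966, 1.07 and 1.10 times the cyclic share in mares 1 to 4, so that it was higher in 2 of 4. In edgeR's quasi-likelihood test with the mare as a block, in which a call required a Benjamini-Hochberg adjusted p (FDR) no higher than 0.05 with a change no smaller than 2-fold, the log2 fold change was 0.20 (SE 0.15, 95% interval -0.08 to 0.49, FDR = 0.658). It was not called, in a comparison where 3.37% of the 386 tested miRNAs were. The interval lay inside the 2-fold threshold on both sides. Without mare 3 the value was -0.023, and with all mares but plain library totals in place of TMM it was -0.032. Its direction thus depended on that mare and on the scaling.

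In UF, eca-miR-26a took a larger share in pregnancy in 3 of 4 mares, at 0.861, 1.06, 2.56 and 1.39 times the cyclic share in mares 1 to 4. The log2 fold change was 0.51 (SE 0.30, 95% interval -0.08 to 1.09, FDR = 0.474), and eca-miR-26a was not called, where 4.92% of the 305 tested miRNAs were. Leaving out mare 3, whose cyclic UF library stood apart, gave 0.24 (FDR = 0.691). An exact sign-flip test of the shares over 4 mares cannot give a two-sided p below 0.125, and none is given.

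The difference between the pregnancy effects in UF and in endometrium was tested as an interaction over both. For eca-miR-26a it was 0.19 on the log2 scale (SE 0.35, 95% interval -0.52 to 0.90, FDR = 0.992), in a test that called 1.69% of 415 miRNAs. With mares left out in turn it ranged from 0.18 (without mare 3) to 0.64 (without mare 1), and it was called in none of these fits. An effect of pregnancy that differed between the tissue and its fluid was not detectable with these mares.

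**Figure D3:**
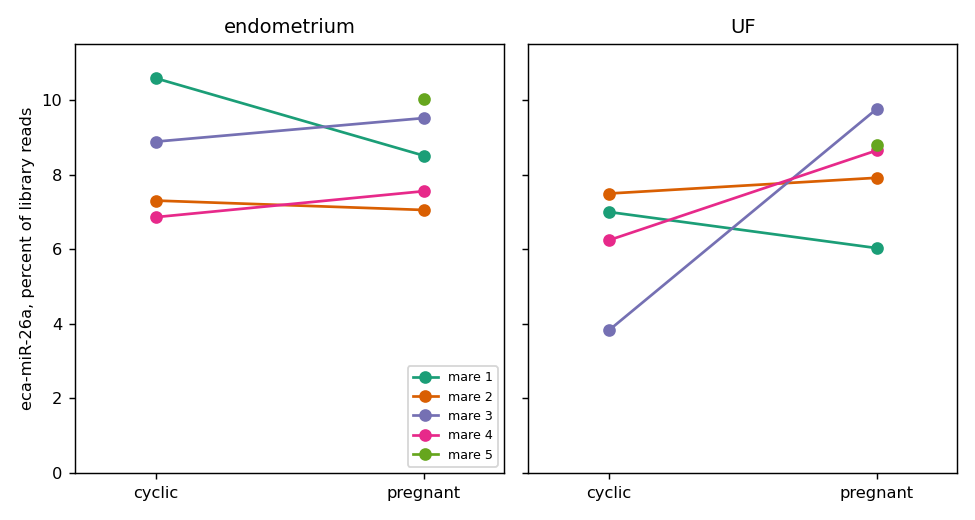
Share of eca-miR-26a in the library reads (percent) in the cyclic and the pregnant cycle of each mare, in endometrium (left) and UF (right). Lines join the libraries of 1 mare, and mare 5 has pregnant libraries only. In endometrium 2 of 4 lines rise and in UF 3 of 4, the steepest being that of mare 3 at 2.56 times.

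The maternal tissue and its fluid were compared within each state. In the pregnant cycle the UF share of eca-miR-26a was 0.709 to 1.15 times that of the endometrium of the same mare and was higher in 3 of 5 mares. The log2 fold change of -0.19 (SE 0.21, 95% interval -0.64 to 0.26, FDR = 0.50) was not called, where 33.7% of the 359 tested miRNAs were. In the cyclic state the ratio lay between 0.430 and 1.03 and was above 1 in 1 of 4 mares. There the log2 fold change was -0.61 (SE 0.27, 95% interval -1.18 to -0.04), which did not pass after adjustment (FDR = 0.102), in a comparison that called 30.8% of 328 miRNAs, and without mare 3 it was -0.35 (FDR = 0.282). In the pregnant comparison eca-miR-26a lay near the middle of all tested miRNAs, with 48.2% of them below it, and in the cyclic comparison 38.7% lay below it. Among the tested known miRNAs of at least 500 CPM, 48.9% of 88 lay below it in the pregnant and 29.2% of 89 in the cyclic comparison. Since the tissues are bulk samples, fewer cells of a type and less RNA per cell cannot be told apart in them. UF was the supernatant of a centrifuged tampon, and where its miRNAs came from was not tested.

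YS fluid had less eca-miR-26a than pregnant endometrium in all 5 conceptuses, at 0.330 to 0.630 times the share in the endometrium of the dam. On the TMM scale the difference was larger, with a log2 fold change of -3.15 (SE 0.36, 95% interval -3.93 to -2.38, edgeR FDR = 2.62e-06), that is 8.90-fold lower. The call fell in a comparison in which 53.1% of the 341 tested miRNAs were called and whose median was -0.84, and 28.7% of the tested miRNAs had a lower value than eca-miR-26a. Without TMM, with plain library totals, eca-miR-26a was still called, at -1.14 (FDR = 0.000918), and without mare 4 the TMM value was -3.47.

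Against pregnant UF, which like YS fluid was extracted with the serum and plasma kit, the same direction was found. The YS share was 0.377 to 0.645 times that of the dam's UF and lower in 5 of 5 pairs. The log2 fold change was -2.88 (SE 0.28, 95% interval -3.46 to -2.29, FDR = 3.28e-07), that is 7.35-fold lower, where 59.6% of 277 miRNAs were called and the median was -0.54. With plain totals it was -1.09 (FDR = 0.00204) and without mare 4 it was -2.84. The lower level of eca-miR-26a in YS fluid than in pregnant endometrium and in pregnant UF was called under all 15 alternatives tried for each comparison.

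Embryos carried shares of eca-miR-26a that were 0.433 to 1.40 times those of the dams' endometrium and higher in 2 of 5. The pregnant libraries in the comparisons of the embryo are the same as in those of YS fluid. On the TMM scale, however, eca-miR-26a was 2.89-fold lower in the embryo, with a log2 fold change of -1.53 (SE 0.28, 95% interval -2.13 to -0.93, FDR = 0.000458). This comparison called 71.3% of 359 miRNAs and had a median of -1.02, and 46.8% of the tested miRNAs lay below eca-miR-26a. With plain totals the value was -0.20 (FDR = 0.483) and the median of all miRNAs moved to 0.30, so the call depended on the scaling. Without mare 1, whose embryo library stood apart, the TMM value was -1.49.

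Against pregnant UF the embryos had 0.611 to 1.22 times the share of eca-miR-26a and were higher in 1 of 5 pairs. The TMM-scaled log2 fold change was -1.65 (SE 0.31, 95% interval -2.33 to -0.98, FDR = 0.000612), that is 3.15-fold lower, where 68.4% of 310 miRNAs were called and the median was -0.23. With plain totals it was -0.15 (FDR = 0.631), against a median of 1.18, and the call was lost. Without mare 1 it was -1.17.

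Within the conceptus, the embryo had more eca-miR-26a than the YS fluid in 4 of 5 pairs, at 0.946 to 2.49 times its share, the exception being the embryo of mare 1. The log2 fold change was 1.61 (SE 0.30, 95% interval 0.96 to 2.26, FDR = 0.00241), that is 3.05-fold higher in the embryo, in a comparison that called 35.1% of 259 miRNAs around a median of 0.28. It was 1.57 without mare 1 and 1.502 without mare 4. With plain totals the difference of 0.94 (FDR = 0.0251) stayed under the 2-fold threshold.

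**Figure D4:**
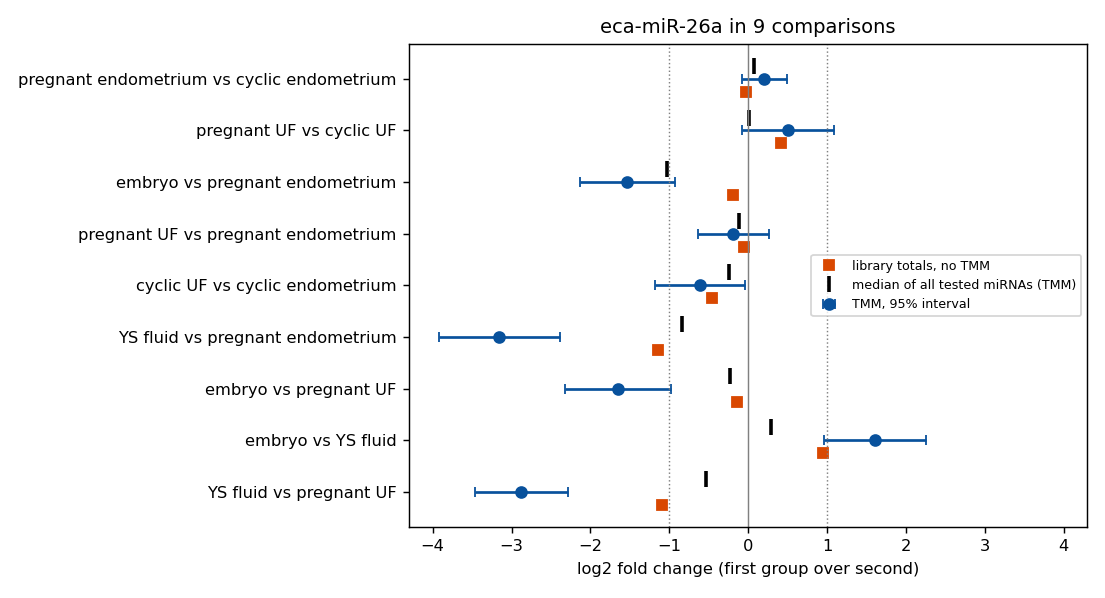
Log2 fold change of eca-miR-26a in the 9 comparisons, first group over second. Blue points are the TMM-scaled edgeR estimates with 95% intervals, orange squares the estimates with plain library totals, black ticks the median of all tested miRNAs on the TMM scale, and dotted lines the 2-fold threshold. The 2 comparisons of YS fluid with maternal samples lie beyond -1 on both scales, whereas those of the embryo with maternal samples do so with TMM and lie at -0.20 and -0.15 with plain totals.

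Sample types also differed in their cellular markers, whose part in these differences was not tested. Of the 5 epithelial miRNAs (miR-200a, miR-200b, miR-200c, miR-141 and miR-429) all were read in every group, and they summed to 49225 to 72060 CPM in pregnant endometrium, 63036 to 90170 CPM in pregnant UF, 93675 to 131785 CPM in the embryo and 48634 to 117732 CPM in YS fluid. These sums hide members that went different ways. Means of eca-miR-200a, eca-miR-200b and eca-miR-429 were higher in the embryo than in pregnant endometrium, and those of eca-miR-200c and eca-miR-141 were lower. For eca-miR-200b they were 76976 against 17544 CPM, and for eca-miR-200c 9503 against 22538 CPM. The 5 miRNAs of stroma and smooth muscle summed to 12111 to 45569 CPM in pregnant endometrium and 275 to 5532 CPM in pregnant UF. In the embryo they reached 156 to 797 CPM, with miR-199a-5p and miR-214 at 0, and in YS fluid 484 to 5515 CPM, with miR-145 at 0. The 5 leukocyte miRNAs summed to 2816 to 3474 CPM in pregnant endometrium, 1714 to 2791 CPM in pregnant UF, 48.3 to 193 CPM in the embryo and 138 to 919 CPM in YS fluid. In the embryo miR-142-3p and miR-150 were at 0, and in YS fluid 4 of 5 were, with only miR-155 read. A count of 3 reads is 67.0 to 106 CPM in embryo libraries and 206 to 689 CPM in those of YS fluid. A value of 0 there therefore does not show that a miRNA was absent.

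Several abundant miRNAs followed eca-miR-26a over the libraries. By Pearson's r of log2(CPM + 1) over the 28 libraries, among the 94 miRNAs above, the most alike were eca-miR-101 (0.86), eca-miR-141 (0.79), eca-miR-27b (0.70), eca-miR-21 (0.62) and eca-miR-31 (0.59). All libraries enter each r and their totals are shared, so the values describe these libraries, and no p is given. The other miRNAs of the epithelial list, to which eca-miR-141 belongs, did not follow eca-miR-26a alike, with r of 0.46 for eca-miR-200a, -0.25 for eca-miR-200b, -0.24 for eca-miR-200c and -0.40 for eca-miR-429. Without the 3 libraries that stood apart, r was 0.86 for eca-miR-101, 0.78 for eca-miR-141, 0.68 for eca-miR-27b, 0.65 for eca-miR-21 and 0.58 for eca-miR-31, and -0.87 for eca-miR-92a, -0.83 for eca-miR-423-5p and -0.76 for eca-miR-128. Part of the likeness lay between groups and part within them. For the deviations of single libraries from their group means, r was 0.81 for eca-miR-101, 0.75 for eca-miR-27b and 0.54 for eca-miR-141, but 0.41 for eca-miR-31 and 0.32 for eca-miR-21.

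As for eca-miR-26a, the mean of eca-miR-101 was highest in pregnant endometrium, at 4238 ± 2004 CPM, and lowest in YS fluid, at 485 ± 509 CPM. The highest library of pregnant endometrium, at 7740 CPM, raised that mean. Medians of eca-miR-101 were 3488 CPM in pregnant and 3182 CPM in cyclic endometrium. The YS fluid values of eca-miR-101 rest on 2 to 6 reads per library, so that its level there was at or near the floor of 3 reads. In the tests both were called lower in YS fluid than in pregnant endometrium, at -5.47 for eca-miR-101 and -3.15 for eca-miR-26a. They parted between UF and endometrium in the pregnant cycle, where eca-miR-101 was called lower (-1.83, FDR = 0.00104) and eca-miR-26a was not.

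With eca-miR-21, eca-miR-26a shared the narrow span and a position among the leading miRNAs. The number of eca-miR-26a reads per eca-miR-21 read was 0.843 ± 0.200 (SD) in cyclic endometrium, 0.626 ± 0.137 in pregnant endometrium, 0.774 ± 0.232 in cyclic UF, 0.718 ± 0.0997 in pregnant UF, 0.580 ± 0.285 in the embryo and 0.574 ± 0.118 in YS fluid. Within mares it was lower in the pregnant than in the cyclic endometrium in 4 of 4, at 0.615 against 0.905, 0.568 against 0.686, 0.832 against 1.10 and 0.459 against 0.682 in mares 1 to 4, and in UF it was lower in 2 of 4. This ratio does not depend on the scaling of the libraries, and its group means lay within a narrower span than the level of either miRNA on the TMM scale. Group means of eca-miR-21 were 138803 ± 20489 CPM in pregnant endometrium, 138826 ± 44745 CPM in the embryo, where it was the most abundant known miRNA, and 67648 ± 7117 CPM in YS fluid. Side by side, the log2 fold changes of eca-miR-21 and eca-miR-26a were 0.65 and 0.20 for pregnant against cyclic endometrium, where that of eca-miR-21 (edgeR FDR = 8.09e-05) was under the 2-fold threshold, and 0.58 and 0.51 for pregnant against cyclic UF. Between UF and endometrium they were -0.37 and -0.19 in the pregnant and -0.37 and -0.61 in the cyclic state. Against pregnant endometrium they were -1.30 and -1.53 for the embryo and -3.02 and -3.15 for YS fluid, against pregnant UF -1.23 and -1.65 for the embryo and -2.53 and -2.88 for YS fluid, and 1.72 and 1.61 for embryo against YS fluid.

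The miRNAs least like eca-miR-26a were eca-miR-92a (r = -0.79), eca-miR-423-5p (-0.76) and eca-miR-128 (-0.69). Within groups their r was -0.38, -0.35 and -0.25. The most abundant known miRNA of YS fluid was eca-miR-92a, a member of the miR-17-92 cluster that MYC activates, at 225616 ± 54558 CPM, against 5161 ± 1565 CPM in pregnant endometrium. In the embryo it had 19912 ± 6725 CPM. In the maternal groups eca-let-7a led instead, with means of 190212 (cyclic endometrium), 189681 (pregnant endometrium) and 181049 CPM (pregnant UF). In cyclic UF it was level with eca-let-7c, at 172441 against 172346 CPM, and without mare 3 eca-let-7c led, at 152189 against 141110 CPM.

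**Figure D5:**
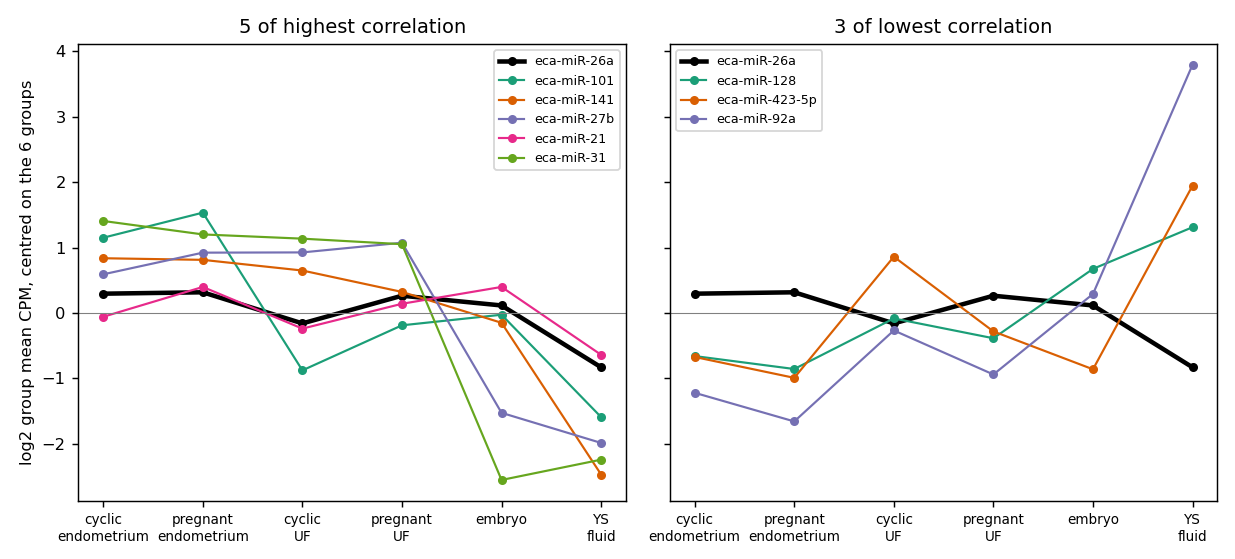
Group means of log2 CPM, each centred on its own mean over the 6 groups, for eca-miR-26a (black) and the 5 known miRNAs of highest (left) and 3 of lowest (right) correlation with it over the 28 libraries. The left-hand lines are lowest in the embryo or YS fluid, and the coloured right-hand lines are highest in YS fluid, where eca-miR-92a had a mean of 225616 CPM.

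Members of other lists related to miR-26a were described by their counts. The first holds other miRNAs that MYC represses in tumour cells, of which 20 of 21 were in the counts. Between pregnant and cyclic endometrium none of 20 was called by edgeR, where 65 of all 386 miRNAs had an unadjusted p under 0.05, and with DESeq2 none of the listed miRNAs was called either. In UF, 2 of 20 rose in pregnancy, eca-miR-23b by 1.73 and eca-miR-23a by 1.40 on the log2 scale, with a list median of 0.10 against 0.01 over all miRNAs tested, of which 4 of 305 rose and 11 fell (4.92% called). No listed miRNA was called in UF when mare 2 or mare 3 was left out, nor without the block for the mare.

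Against pregnant endometrium, the embryo had 3 of the 20 MYC-repressed miRNAs higher and 13 lower, with a list median of -4.32 against -1.02 over all 359 miRNAs tested, of which 103 were higher and 153 lower (71.3% called). Of these, 6 had at most 3 reads in every embryo library, and with these placed at the bound that 3 reads allow the median was -2.20. The 2 largest rises were those of eca-miR-22 (2.73) and eca-miR-16 (1.70). Among the falls, eca-miR-150, a lymphocyte miRNA, had no read in the embryos and was at least 2.39-fold lower, and eca-let-7d, of the let-7 family that marks differentiated cells, had a log2 fold change of -6.63. Also called lower, eca-miR-29b had no read in the embryos and 31 in pregnant endometrium, too few to bound the change. With no read in the embryos, eca-miR-150 and eca-miR-29b entered the test through pregnant endometrium alone and could only come out lower. In YS fluid 0 of 20 were higher and 16 lower, with a median of -4.74, or of -2.13 with 9 miRNAs at their bound, against -0.84 over all 341, of which 61 were higher and 120 lower (53.1% called). There eca-miR-146a had no read and was at least 4.65-fold lower, and eca-miR-150 had no read in YS fluid and 152 reads in pregnant endometrium, too few to bound the change. Also counted as lower were eca-miR-497, bounded only at 1.39-fold, and eca-miR-29b, which could not be bounded. Those with no read in YS fluid could likewise only come out lower. Against pregnant UF, the embryo had 3 of 19 higher and 11 lower, while YS fluid had 0 of 18 higher and 13 lower. Over all miRNAs these comparisons had 92 of 310 higher and 120 lower, and 65 of 277 higher and 100 lower. In YS fluid against pregnant UF, eca-miR-15a, eca-miR-150 and eca-miR-195 were called lower, with bounds of only 1.62-, 1.80- and 1.18-fold. With plain totals the counts against pregnant endometrium became 5 higher and 13 lower in the embryo and 4 higher and 12 lower in YS fluid, so that the absence of rises in YS fluid depended on the scaling.

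Of the miR-17-92 cluster, 5 of 6 members were higher and none lower than in pregnant endometrium in the embryo, with a median of 2.41, and likewise in YS fluid, with a median of 2.56. Over all miRNAs 103 of 359 were higher in the embryo, around a median of -1.02, and 61 of 341 in YS fluid, around -0.84. The largest rises were those of eca-miR-18a (5.86 in the embryo, 5.09 in YS fluid) and eca-miR-17 (3.61 and 3.97). None of the 6 differed by the call between pregnant and cyclic samples or between UF and endometrium.

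Among the other miRNAs reported to target EZH2 (eca-miR-101, eca-miR-138, eca-miR-214, eca-let-7a and eca-let-7c), 4 of 5 were lower in the embryo than in pregnant endometrium, where 153 of all 359 were (71.3% called in either direction). The fifth, eca-miR-138, had no read in pregnant endometrium and was at least 10.6-fold higher in the embryo. It entered the test through the embryo libraries alone, so it could only come out higher, and it was not tested in YS fluid against pregnant endometrium. In YS fluid 4 of 4 tested were called lower, where 120 of all 341 were (53.1% called). The lowest values were those of eca-miR-101 (-5.47) and eca-let-7c (-5.11). The fall of eca-miR-101 rests on 2 to 6 reads per YS fluid library. That of eca-miR-214, with 1 read in YS fluid, was bounded only at 1.72-fold, under the 2-fold threshold. Together these 5 miRNAs summed to 236702 to 372236 CPM in pregnant endometrium, 4847 to 14733 CPM in the embryo and 9339 to 92831 CPM in YS fluid, whereas eca-miR-26a alone had 36803 to 105857 CPM in the embryo. In each of the 5 embryo libraries eca-miR-26a therefore outnumbered the sum of the other listed miRNAs.

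Prostaglandin synthesis by PTGS2 is a step of luteolysis in the mare, and miR-26a is among the miRNAs reported to target PTGS2. The 3 others listed, eca-miR-101, eca-miR-143 and eca-miR-199a-3p, were all called lower in UF than in endometrium, with medians of -2.91 in the pregnant and -4.14 in the cyclic cycle, against -0.12 and -0.24 over all miRNAs tested. The latter 2 are also among the stromal markers above. All 3 were lower in the embryo (median -6.51) and in YS fluid (median -5.47) than in pregnant endometrium. In these comparisons the medians over all miRNAs were -1.02 and -0.84, and 71.3% and 53.1% were called. The YS fluid level of eca-miR-101 rests on 2 to 6 reads per library. None of the 3 was called between pregnant and cyclic samples, and neither was eca-miR-26a. There edgeR called 13 miRNAs in endometrium and 15 in UF, and an unadjusted p under 0.05 was reached by 65 and 43 miRNAs. The 13 called in endometrium were all higher in pregnancy. The list does not hold eca-miR-144, which was thus not called lower in pregnant endometrium here. The paper reports that miRNA as downregulated there and cites a regulation of PTGS2 by it in murine granulosa cells.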

How the data were processed

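The authors deposited raw counts of reads per mature miRNA for 28 libraries. Per their methods, libraries were made with the TailorMix kit and sequenced on a MiSeq. Adapters were removed with cutadapt 1.11 (version also in the submitters' processing notes), reads of at least 17 bases and quality 20 were kept, and known and predicted miRNAs were counted with miRPro against miRBase release 22 and EquCab2.0. How reads shared by several precursors were assigned is not given in the sources used here. A table of precursor counts was not used.

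From these counts, shares and CPM of library totals were computed for known and predicted miRNAs together. Groups were compared with edgeR 4.0.16 (R 4.3.3, glmQLFit and glmQLFTest) with TMM, on miRNAs of at least 1 CPM in as many libraries as the smaller group holds. Fits of pregnant against cyclic samples, and the interaction, had the mare as a block. A call needed an FDR no higher than 0.05 with a change no smaller than 2-fold. Pairing follows from the study's design, since the same mares gave both cycles. Deviations of libraries of 1 mare from their group means had mean correlations of 0.102 in endometrium (-0.027 to 0.191) and 0.115 in UF (0.003 to 0.194). Centring on the group means largely fixes the values for different mares (-0.0254 and -0.0290), so these are no separate check of the pairing. The scripts were tested on simulated data. Bounds for miRNAs without reads used 3 reads per library, which cover counting error only.

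Named miRNAs were eca-miR-26a, the most abundant known miRNA of each group, the 5 most and 3 least correlated among those of at least 500 CPM, the 2 largest called rises and falls of each list described, and the reference miRNAs. Where further listed miRNAs are named they were chosen after their values were seen. The members and lists were chosen with earlier results of these data known. Alternatives were DESeq2 1.42.0, RLE size factors, scaling by common reference miRNAs, no filter, filterByExpr with a minimum count of 10, known miRNAs only, the other use of the block, all 28 libraries in 1 fit, each mare left out, and, chosen after seeing the data, reference scaling without let-7a, plain totals, and the levels, spread and correlations of eca-miR-26a without the 3 libraries that stood apart.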

Additional observations from a re-analysis of the deposited data

How the results depend on the processing

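The calls of eca-miR-26a for YS fluid against pregnant endometrium and pregnant UF held under every alternative, with log2 fold changes of -3.54 to -3.06 and -2.90 to -2.61 when mares were left out in turn. Calls for the embryo depended on the scaling. Against pregnant endometrium the value was -0.66 (edgeR FDR = 0.0993) with common reference scaling and -0.20 with plain totals, and against pregnant UF it was -0.996 with DESeq2 and with RLE factors, just under the 2-fold threshold, -0.47 with common reference scaling and -0.15 with plain totals. For embryo against YS fluid plain totals gave 0.94. The value for pregnant against cyclic endometrium, never called, turned to -0.0050 with common reference scaling and -0.032 with plain totals and ranged from -0.023 to 0.20 with mares left out, the lowest being without mare 3. With known miRNAs only, that of pregnant UF against pregnant endometrium turned to 0.019. The cause of these changes was not tested. The alternatives differ in how libraries are scaled, in the test used, or in the mares or miRNAs that enter the fit. Depth limits YS fluid most.

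Without the replicate block for the mare, eca-miR-26a was at 0.28 in endometrium and 0.48 in UF, and the interaction was 0.19. With the block, the other comparisons gave -1.60 and -3.18 (embryo and YS fluid against pregnant endometrium), -0.18 and -0.60 (UF against endometrium, pregnant and cyclic), -1.72 and -2.86 (embryo and YS fluid against pregnant UF) and 1.53 (embryo against YS fluid). The block changed no call of eca-miR-26a. It changed counts: without it 0 miRNAs were called in endometrium, UF and the interaction (edgeR, with 58, 35 and 26 at an unadjusted p under 0.05), 0 listed miRNAs in UF, and with it 54 instead of 91 for embryo against YS fluid.

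Counts of called miRNAs moved by over 1.5 times as follows. In endometrium, 13 became 3 with filterByExpr, 2 with known miRNAs only and 0 with all 28 libraries in 1 fit (23 at an unadjusted p under 0.05). In UF, 15 became 7 with DESeq2, 0 with filterByExpr (19 at an unadjusted p under 0.05), 3 with known miRNAs only, 9 with reference scaling without let-7a, 2 with 28 libraries, and 2 (without mare 3) to 26 (without mare 1) with mares left out. Listed miRNAs called in UF went from 2 to 0 with filterByExpr and with 28 libraries, and 0 to 2 with mares left out. The interaction went from 7 to 0 with known miRNAs only (14 unadjusted), and 0 to 20 with mares left out, 0 being without mare 3. Under filterByExpr, which tests fewer miRNAs, 256 became 140, 121 became 75, 212 became 101, 91 became 40 and 165 became 90 for embryo against pregnant endometrium, pregnant UF against pregnant endometrium, embryo against pregnant UF, embryo against YS fluid and YS fluid against pregnant UF. For embryo against YS fluid the 28-library fit gave 140, leaving out mares 40 (without mare 5) to 74, and listed miRNAs called went from 9 to 15 with DESeq2, 14 with plain totals and 14 with 28 libraries.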
